A study of Homo sapiens
Mus musculus and Mus musculus and Homo sapiens with 16 samples.

Results

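The 10 genes described here encode secreted or membrane-bound factors with which bone marrow stroma supports blood cells, namely Kitl, Flt3l, Csf1, Il7, Il6, Lif, Angpt1, Igf1, Hgf and Tgfb1. They were chosen by symbol, with earlier results of these data known, and matched 11 of the 49671 rows of the mouse gene table, because Flt3l has 2 rows. RNA-seq counts were compared between MS-5 cells cultured alone and MS-5 cells in 24 h coculture with REC-1 cells. MS-5 is a mouse bone marrow stromal cell line and REC-1 a human mantle cell lymphoma line. For the coculture, 500000 MS-5 cells were plated a day ahead and 5000000 REC-1 cells were added. There were 4 libraries of MS-5 alone and 4 of the adherent layer of the coculture (ADH), in which stroma and bound lymphoma cells were sequenced together and reads were separated by species afterwards. Human counts were also used from 4 libraries each of ADH, of REC-1 cells floating above the stroma in the same system (SUSP) and of REC-1 cells cultured without stroma (SEP). Each group stands for 1 cell line, and the labels name no drug or genetic change in any of them. The labels do not say what a replicate is, while the study describes its sequenced replicates as independent experiments.

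Bone marrow stromal cells feed hematopoietic cells through short-range ligands. Kitl (stem cell factor), Flt3l and Csf1 (macrophage colony-stimulating factor) act on receptor tyrosine kinases of stem, progenitor and myeloid cells, and Il7 drives early B lymphocytes. Il6 and Lif signal through the shared chain Il6st (gp130) to STAT3. Angpt1, Igf1 and Hgf act on the receptors Tek, Igf1r and Met, and Tgfb1, made as a latent precursor, holds cells quiescent through SMAD proteins. Stromal lines such as MS-5 are used as feeder layers because they make several of these factors.

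Kitl has a membrane-bound and a shed form, and these differ by 1 alternative exon that carries the main cleavage site. The exon is shown because gene counts add both forms together, so the Kitl values below do not tell them apart. In the GRCm38 annotation it lies at chr10:100080857-100080940 on the plus strand, is 84 bases (28 codons) long, and is in transcript Kitl-202 but not in Kitl-201. Capitals mark the exon, and the 20 lower-case bases on either side are those of the neighbouring exons in the spliced transcript:
Kitl-202: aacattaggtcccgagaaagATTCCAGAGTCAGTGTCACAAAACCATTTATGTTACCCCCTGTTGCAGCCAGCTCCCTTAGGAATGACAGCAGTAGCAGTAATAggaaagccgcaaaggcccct

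Mouse counts per library were 10097555 to 17397651 in MS-5 alone and 29495404 to 34615602 in ADH. Levels are given as CPM, counts scaled to the library total after TMM normalization, and per kilobase of exon where genes are compared with each other. Among 12 stromal markers, 11 had counts in both groups, with Thy1 at 0 in all 8 libraries and Lepr, which marks marrow stroma in the animal, at no more than 0.185 CPM on average. The summed stromal markers were at 4041 to 4343 CPM in MS-5 alone and 4272 to 4736 CPM in ADH. Of 7 mouse B-cell markers, which would show human reads taken for mouse, 2 had counts in ADH, their sum did not pass 0.0681 CPM, and Cd79b, Pax5, Cd22 and Ptprc were at 0. Of 4 macrophage markers, Adgre1 and Itgam were at 0 too, while Cd68 and Csf1r had counts in both groups. Itgam may be undercounted, because its 2 rows are annotated genes that overlap on the same strand. The 4 summed to 3.63 to 4.86 CPM in MS-5 alone and 3.72 to 5.62 CPM in ADH. The endothelial markers Cdh5 and Kdr were at 0, and the 3 endothelial markers summed to at most 0.177 CPM. Low counts were mostly even numbers (71.1% to 78.6% of mouse genes with 1 to 20 counts), which is how counts look when both reads of a pair are counted, although the methods describe counts of fragments. Whether both reads were counted was not tested, and intervals based on counts may be too narrow. As cell numbers per library were not recorded in the labels, fewer cells and less RNA per cell cannot be told apart.

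Relative to each other, 4 of the 10 factors were at higher levels in MS-5 cells alone, 1 at an intermediate level and 5 at low levels. Csf1 led with 135 ± 9.47 CPM per kilobase (SD, n = 4) and made up 57.7% of the summed level of the 10 genes. Angpt1 followed at 58.8 ± 4.74, Kitl at 18.7 ± 1.499 and Tgfb1 at 14.1 ± 0.351 CPM per kilobase, and Hgf was at 4.63 ± 0.509. The ranges of these 5 genes did not overlap with those of their neighbours in the order. Csf1 lay at the 97.4th and Angpt1 at the 93.3rd percentile of all tested genes with a known length. Kitl lay at percentile 75.5, Tgfb1 at 69.4 and Hgf at 40.1. Flt3l (0.745 ± 0.193), Il7 (0.727 ± 0.143) and Igf1 (0.637 ± 0.113 CPM per kilobase) overlapped with their neighbours and lay between the 11.4th and 12.8th percentile. Flt3l may be undercounted, because another annotated gene overlaps it. Lif was lower at 0.238 ± 0.0906 CPM per kilobase, and Il6 was nearly absent.

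**Figure D1:**
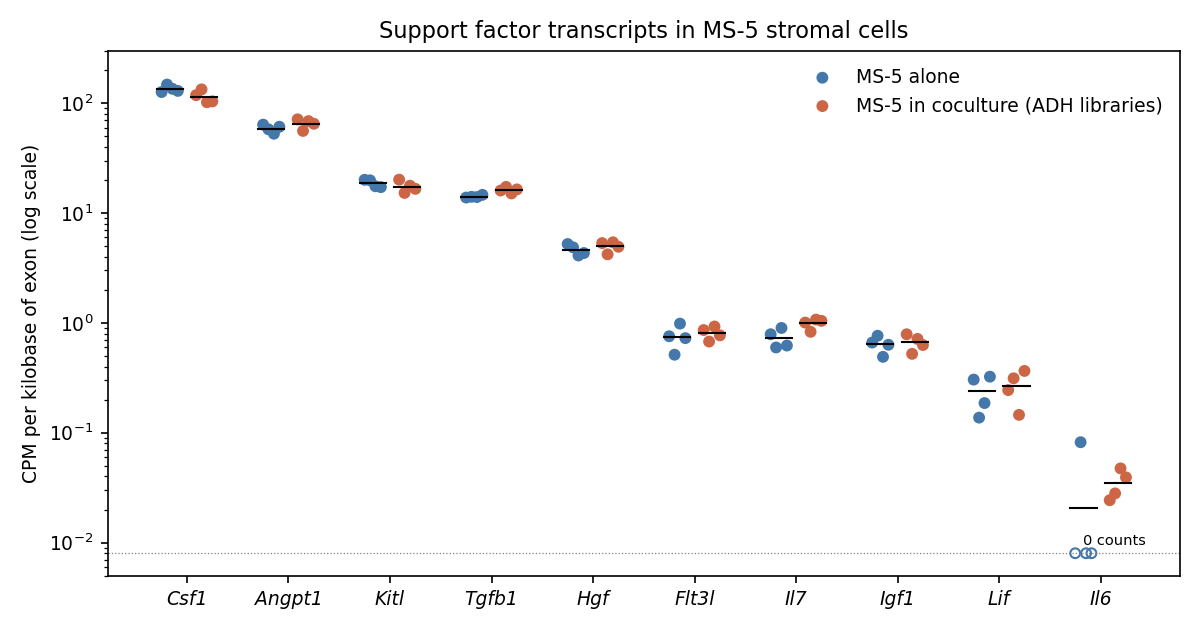
Level of each factor in CPM per kilobase of exon (log scale) in the 4 libraries of MS-5 alone and the 4 ADH libraries, with points for libraries, bars for group means and open circles on the dotted line for libraries with 0 counts. The genes span from Csf1 at 135 CPM per kilobase to Il6 at 0.0205 in MS-5 alone, and in all but Tgfb1 the points of the 2 groups overlap.

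In coculture the order was nearly the same. Csf1 (114 ± 14.7 CPM per kilobase), Angpt1 (65.2 ± 6.72), Kitl (17.4 ± 2.07) and Tgfb1 (16.2 ± 0.914) again led, but here the ranges of Kitl and Tgfb1 overlapped. Il7 stood above Flt3l at 0.988 ± 0.109 against 0.808 ± 0.109 CPM per kilobase, with overlapping ranges. Csf1 made up 51.8% and Angpt1 29.5% of the summed level, against 25.2% for Angpt1 in MS-5 alone.

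No factor passed the test between MS-5 in coculture and MS-5 alone. Calls needed a fold change of at least 1.5 and an adjusted p (Benjamini-Hochberg over all tested genes) of at most 0.05. Of the 10 factors 9 passed the filter on low counts, and edgeR's quasi-likelihood F-test called 0 of 9, against a background of 0.205% of 12201 genes (25 genes, with 5 or 0.041% higher and 20 or 0.164% lower). DESeq2 called 0 of the 7 to which it gave an adjusted p, leaving out Flt3l and Lif. At an unadjusted p below 0.05 there were 3, Csf1, Il7 and Tgfb1, where 11.3% of all tested genes met this. The log2 fold change was positive for 7 of 9, with a median of 0.11 beside 0.00 (-0.00165) over all tested genes, and 8 of 9 lay within 0.25 of 0, as 85.6% of all genes did. The 10 tested stromal markers had a median of 0.14, 7 of 10 were positive, 4 had an unadjusted p below 0.05 and 0 were called, and their part in the result was not tested. For 7 of 9 the 95% interval of the change lay inside 1.5-fold in both directions, as it did for 79.7% of all tested genes. The exceptions were Il7 and Lif, both of low level.

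**Figure D2:**
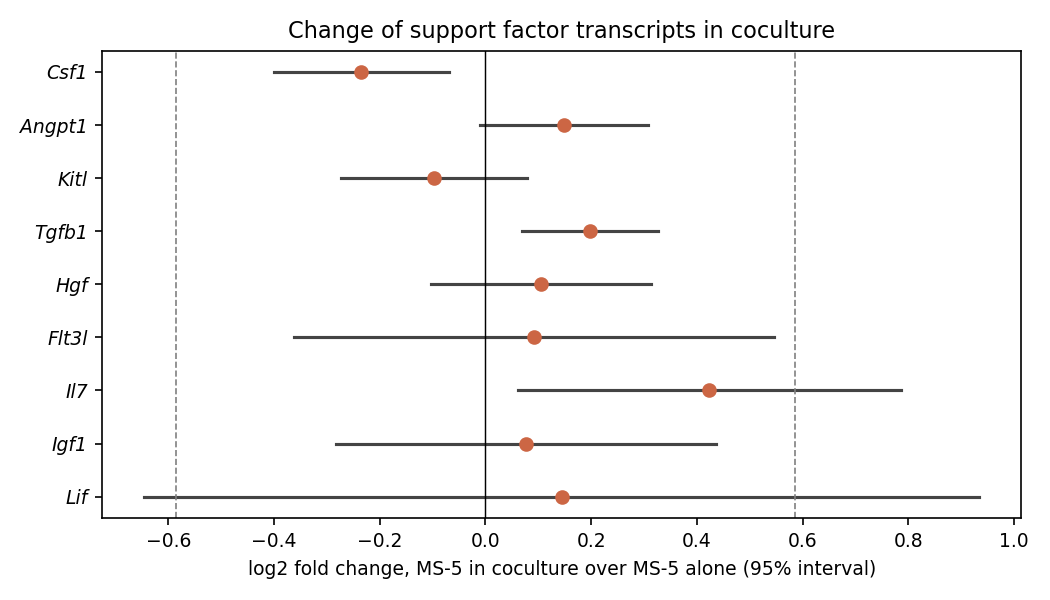
Log2 fold change of the 9 tested factors, MS-5 in coculture over MS-5 alone, as points with 95% intervals from the quasi-likelihood fit and dashed lines at a 1.5-fold change. The point estimates run from -0.23 for Csf1 to 0.42 for Il7, and only the intervals of Il7 and Lif cross a dashed line.

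Among the ligands of receptor tyrosine kinases on blood cells, Kitl (ENSMUSG00000019966, chr10:100015630-100100416 in GRCm38) was at 119, 117, 104 and 102 CPM in MS-5 alone and at 119, 90.0, 105 and 98.1 CPM in ADH. The ADH libraries took in the whole range of the others. The change was -0.10 on the log2 scale (95% interval -0.27 to 0.08, edgeR adjusted p = 0.713), or 0.935-fold. This sum holds transcripts with and without the exon shown above.

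Csf1 (ENSMUSG00000014599, chr3:107741048-107760469), the growth factor of macrophages, was at 667, 780, 713 and 683 CPM in MS-5 alone and at 624, 705, 538 and 548 CPM in ADH. ADH replicates 1, 3 and 4 lay below every library of MS-5 alone, and ADH replicate 2 lay among them. The difference was -0.23 (interval -0.40 to -0.07), or 0.85-fold, with an unadjusted p of 0.00856 and an adjusted p of 0.226 by edgeR. Without ADH replicate 2 the edgeR adjusted p was 0.0347 at a log2 fold change of -0.32. With no filter on low counts it was 0.00373, and with replicate number added to the model 0.00705 at -0.24. The fold change stayed under 1.5 each time. Without MS-5 replicate 2 the edgeR adjusted p was 0.510 at -0.18.

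Flt3l (ENSMUSG00000110206, chr7:45129788-45136432), which expands progenitors and dendritic cells, had 42, 20, 66 and 36 counts in MS-5 alone and 113, 77, 125 and 94 in the deeper ADH libraries. This came to 2.93, 1.99, 3.82 and 2.82 CPM against 3.34, 2.62, 3.59 and 2.99 CPM, so that the ADH values lay inside the range of MS-5 alone. The change was 0.09 (interval -0.36 to 0.55, adjusted p = 0.926). A second row of the table named Flt3l (ENSMUSG00000089989), overlapping the first gene on the same strand, was at 0 in all 8 libraries, and reads shared by overlapping genes are not assigned when counted per gene. The level of Flt3l and its place among the factors may therefore be too low, by an amount that was not measured.

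Il7 (ENSMUSG00000040329, chr3:7569994-7613760), the lymphoid cytokine of the set, was low. It had 64, 34, 88 and 45 counts in MS-5 alone and 193, 138, 211 and 186 counts in ADH, or 4.46, 3.38, 5.09 and 3.52 CPM against 5.70, 4.70, 6.07 and 5.91 CPM. Replicates 1, 3 and 4 of ADH lay above all libraries of MS-5 alone, while ADH replicate 2 fell below the highest of them. The log2 fold change, the largest among the factors, was 0.42 (SE 0.170, interval 0.06 to 0.79), or 1.34-fold with an interval of 1.04 to 1.73. The unadjusted p was 0.0243 and the adjusted p 0.344 by edgeR, so the difference did not pass the test, while its interval reached past 1.5-fold.

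The gp130 cytokines were the weakest of the 10. Il6 (ENSMUSG00000025746, chr5:30013114-30019981) had 0, 2, 0 and 0 counts in MS-5 alone and 2, 2, 4 and 3 in ADH, and was not tested. Pooled over libraries, 2 of 54702766 counts stood against 11 of 129050619, a ratio of 2.33 with an exact 95% interval of 0.509 to 21.6. It was computed on undivided counts and covers counting error only, and it is too narrow if both reads of a pair were counted. The interval includes a ratio of 1, and no direction was shown. Lif (ENSMUSG00000034394, chr11:4257557-4272514) was at 1.33, 0.597, 0.810 and 1.41 CPM in MS-5 alone and at 1.06, 1.36, 0.633 and 1.59 CPM in ADH, ranges that overlapped almost fully. Its change of 0.14 had a wide interval of -0.65 to 0.93 (adjusted p = 0.935).

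Of the growth factors that act on vessels and other tissue cells as well, Angpt1 (ENSMUSG00000022309, chr15:42424723-42676977), the agonist of Tek, was at 332, 301, 274 and 317 CPM in MS-5 alone and at 371, 291, 357 and 338 CPM in ADH. Here 3 ADH libraries lay above all of MS-5 alone and ADH replicate 2 lay within them. The change was 0.15 (interval -0.01 to 0.31, adjusted p = 0.478), with an upper bound of 1.24-fold.

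Hgf (ENSMUSG00000028864, chr5:16553495-16620152), the ligand of Met, was at 37.5, 35.0, 29.5 and 31.1 CPM in MS-5 alone and 38.3, 30.2, 38.9 and 35.4 CPM in ADH, with a change of 0.11 (interval -0.10 to 0.31, adjusted p = 0.748). Igf1 (ENSMUSG00000020053, chr10:87858265-87937042) was at 6.56, 7.56, 4.86 and 6.26 CPM against 7.80, 5.17, 7.07 and 6.23 CPM, with a change of 0.08 (interval -0.28 to 0.44, adjusted p = 0.922). The groups overlapped for both genes.

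Tgfb1 (ENSMUSG00000002603, chr7:25687002-25705077) was the most even of the factors between libraries and the 1 member whose groups did not overlap. It was at 69.7, 70.9, 70.5 and 73.8 CPM in MS-5 alone and at 80.8, 87.2, 76.1 and 82.7 CPM in ADH. All 4 ADH libraries were higher, a pattern that 3.06% of all tested genes showed. The log2 fold change was 0.20 (SE 0.0599, interval 0.07 to 0.33), or 1.15-fold, with an unadjusted p of 0.00491 and an adjusted p of 0.185 by edgeR. The adjusted p ranged from 0.0716 to 0.363 over the alternatives, so the difference was not called in any of them.

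Individual libraries ranked the factors differently. ADH replicate 2 held the lowest ADH value for 6 of the 9 tested factors (Kitl, Il7, Angpt1, Igf1, Hgf and Flt3l) and the highest for Csf1 and Tgfb1. ADH replicate 1 and ADH replicate 4 held the lowest value for 0 of the 9. In MS-5 alone no library was lowest for more than 3 factors. The coefficient of variation in MS-5 alone ran from 2.49% for Tgfb1 to 38.1% for Lif among the tested factors.

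A factor can act on the cell that makes it, so the receptors of the 10 factors were also read in the stroma. Of 15 receptor genes, Kit, Il7r, Flt3 and Tie1 were at 0 in all 8 libraries, which allows up to 0.299 CPM in the shallowest of them. The 3 counts that set this limit cover counting error only, and the limit is too low if both reads of a pair were counted. Il2rg (0 to 0.498 CPM) and Tek (0 to 0.116 CPM) were too low to test. For Kitl, Flt3l, Il7 and Angpt1 the transcripts of the signalling receptors were therefore at or near 0 in the cells that made the ligand.

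The 9 tested receptors were those of gp130, insulin-like growth factor, Hgf and Tgfb1 signalling, with Csf1r. None was called by edgeR, or by DESeq2 among the 7 with an adjusted p, and 3 had an unadjusted p below 0.05 (Il6st, Tgfbr1 and Csf1r). Among all tested mouse genes 0.205% were called by edgeR and 11.3% had an unadjusted p below 0.05. The co-receptor Tgfbr3 (34.0 ± 1.58 CPM per kilobase in MS-5 alone, 35.7 ± 0.949 in ADH) and Il6st (32.8 ± 1.32 and 35.9 ± 1.46) were the most abundant. Met was at 23.2 CPM per kilobase in both groups, with a log2 fold change of 0.00 (interval -0.13 to 0.14), and Igf1r at 5.35 and 5.31, with a change of -0.01 (interval -0.18 to 0.17). Tgfbr1 differed by 0.20 (interval 0.02 to 0.38), Il6ra by 0.18 (interval -0.02 to 0.37), Il6st by 0.13 (interval 0.03 to 0.23), Lifr by 0.12 (interval -0.30 to 0.54), and Tgfbr2 and Tgfbr3 by 0.07 each. Their adjusted p-values from edgeR were between 0.311 and 0.998 without Csf1r.

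Csf1r, the receptor of the most abundant factor, was itself at the edge of detection. It was at 1.12, 1.59, 1.16 and 0.782 CPM in MS-5 alone and at 0.413, 0.477, 0.978 and 0.508 CPM in ADH, so that ADH replicate 3 reached into the range of MS-5 alone. The log2 fold change was -0.93 with an interval of -1.73 to -0.14 (adjusted p = 0.346 by edgeR). As a macrophage marker it stood beside Cd68 at 3.16 ± 0.657 CPM in MS-5 alone and 3.74 ± 0.920 CPM in ADH. Adgre1 and Itgam were at 0, though Itgam may be undercounted.

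**Figure D3:**
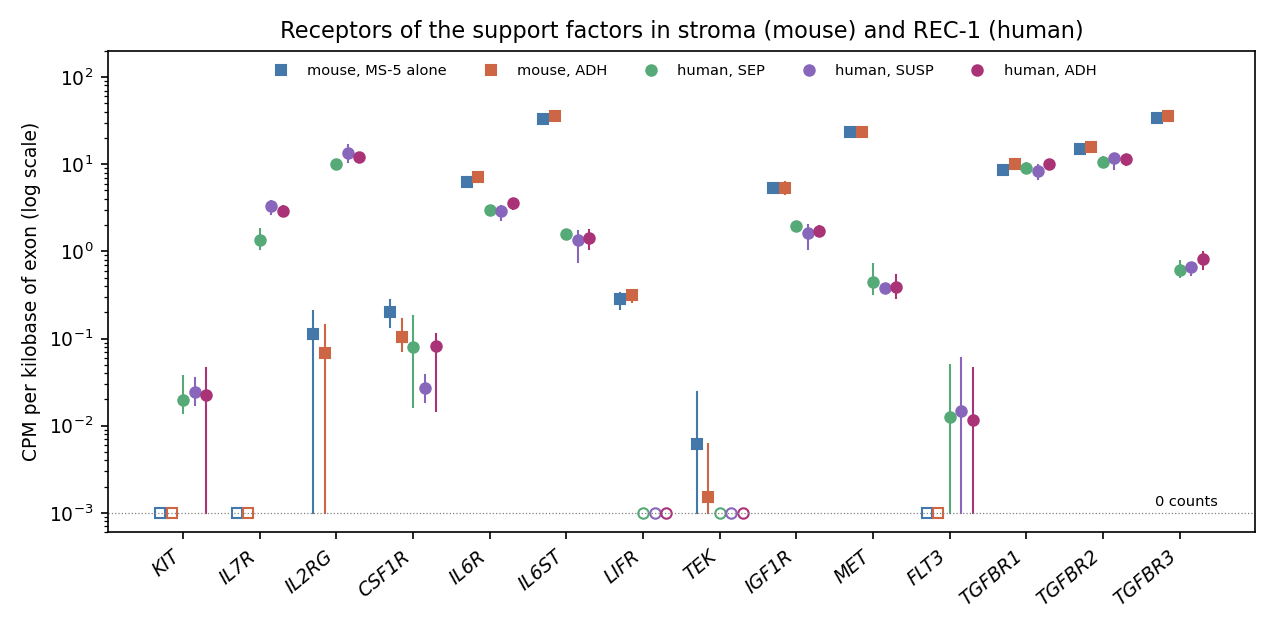
Receptor levels in CPM per kilobase of exon (log scale) as group means with lines from the lowest to the highest library, squares for mouse counts and circles for human counts, open symbols on the dotted line for 0 counts in the group. Each species is scaled to its own total. KIT and FLT3 were at 0 in stroma and at group means of at most 0.0244 in REC-1 cells, with single libraries up to 0.0591. IL7R was at 0 in stroma and LIFR and TEK at 0 in REC-1 cells.

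Several factors need other proteins to become active, so genes for binding, activating and shedding partners were counted as a list of 23, of which 16 were tested. Of these 0 were called by edgeR, or by DESeq2 among the 11 with an adjusted p, 4 had an unadjusted p below 0.05 (Igfbp4, Ltbp2, Ltbp3 and Lrrc32), and the median log2 fold change was 0.08. Over all tested mouse genes edgeR called 0.205%, and 11.3% had an unadjusted p below 0.05. Igfbp1, Igfbp2, Igfbp3, Igfbp5 and Pappa, which bind insulin-like growth factors or cut a binding protein, were at 0 in all 8 libraries. The following were singled out after their values were seen. Igfbp6 (312 CPM per kilobase in MS-5 alone, 291 in ADH) and Igfbp7 (183 and 184) were abundant. Thbs1, which activates latent Tgfb1, was at 410 CPM per kilobase in MS-5 alone and 429 in ADH. The latent Tgfb1 binding proteins Ltbp1 (35.5 and 35.3) and Ltbp3 (50.7 and 55.8) were also well expressed. Of the proteases that shed ligands from membranes, Adam10 (58.6 and 63.0 CPM per kilobase) and Adam17 (12.98 and 13.4) had log2 fold changes of 0.11 and 0.05.

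Of 27 other stromal support factors, 15 were tested and 0 were called by edgeR (0.205% of all tested genes were), or by DESeq2 among the 10 with an adjusted p. Il3, Osm, Bmp4 and Dlk1 were at 0 throughout. An unadjusted p below 0.05 was found for 4 of the 15, beside 11.3% of all tested genes. These 4 were named after their values were seen. Cxcl12, the chemokine that retains B cells in marrow, was at 394, 304, 309 and 279 CPM in MS-5 alone and 521, 383, 428 and 435 CPM in ADH, so that only ADH replicate 2 fell within the range of MS-5 alone. Its log2 fold change of 0.46 (interval 0.25 to 0.67) had an adjusted p of 0.0486 by edgeR but stayed under 1.5-fold, a level of adjusted p that 0.77% of tested genes reached. The matrix cytokine Spp1 was at 5578 ± 935 CPM in MS-5 alone and 7039 ± 973 CPM in ADH, with a change of 0.34 (adjusted p = 0.186). Ptn had a mean of 1.14 CPM in MS-5 alone and 1.87 CPM in ADH without overlap of the groups (3.06% of tested genes were higher in this way), and a change of 0.69 (adjusted p = 0.315). Clcf1 was at 48.2 and 38.6 CPM with overlapping groups and a change of -0.32 (adjusted p = 0.290). The median of the 15 was 0.19, the highest of the lists counted, and the range ran from -0.62 for Thpo to 0.81 for Il34, both near 1 CPM.

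The listed genes that respond to gp130 and Tgfb1 signalling showed no called change. Of 12 feedback and target genes of STAT3 and SMAD proteins, 11 were tested. Of these 0 were called by edgeR, where 0.205% of all tested genes were, and 0 by DESeq2 among the 8 with an adjusted p. An unadjusted p below 0.05 was found for 0 of them, where 11.3% of all tested genes had one. Their log2 fold changes had a median of 0.06 and all 11 lay within 0.25 of 0, with Socs1 at 0.23 and Junb at 0.21. Of all tested genes 85.6% lay within 0.25 too, so this was not particular to the list. Socs3, the STAT3 feedback inhibitor, was at 28.1 ± 5.80 CPM in MS-5 alone and 32.1 ± 5.07 CPM in ADH. Smad7, the feedback inhibitor of Tgfb1 receptors, was at 35.2 ± 2.13 and 33.4 ± 4.17 CPM.

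**Figure D4:**
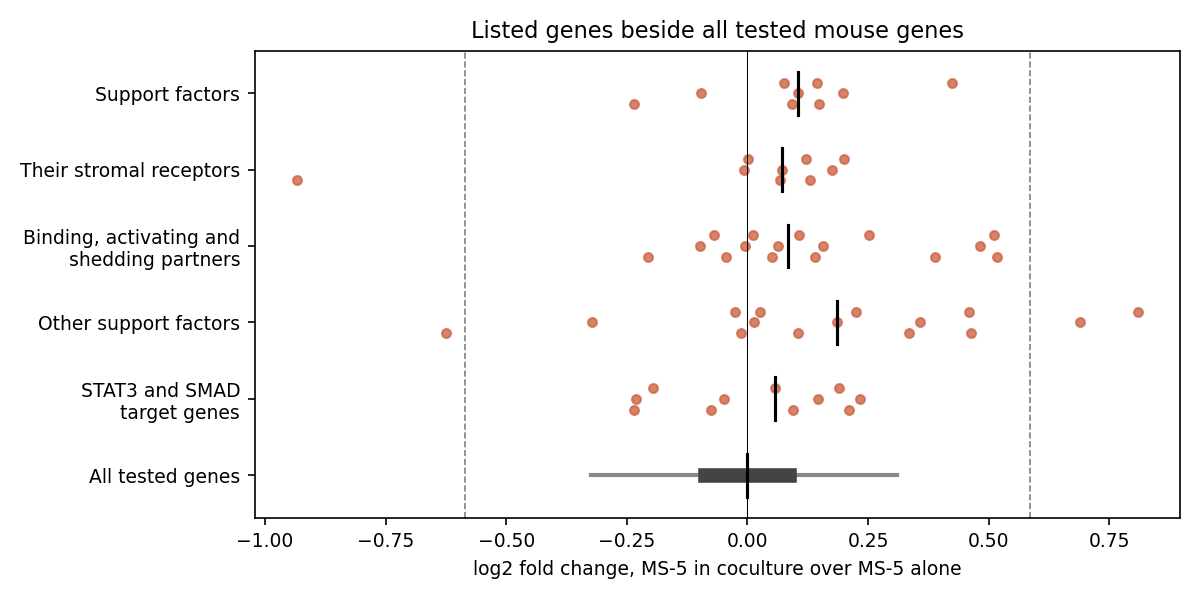
Log2 fold changes, MS-5 in coculture over MS-5 alone, of the tested genes in each list as points with the list median as a bar, beside all 12201 tested genes drawn as median, middle 50% (thick line) and the 5th to 95th percentile (thin line). Dashed lines stand at 1.5-fold. The medians of the 5 lists drawn lie between 0.06 and 0.19 and that of all tested genes at 0.00.

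The human reads of the same ADH libraries show which factor transcripts the bound lymphoma cells added to the adherent layer. Floating REC-1 cells are not in these libraries, so no share of the whole coculture was measured. Human counts per library were 7758979 to 13241751 in ADH, 15000927 to 21467832 in SUSP and 9325412 to 12597891 in SEP, and all 7 human B-cell markers were present at a sum of 4590 to 5291 CPM. REC-1 cells expressed TGFB1, CSF1 and IL7, and the other 7 counterparts were at or near 0. KITLG and IL6 had 0 counts in all 12 human libraries. ANGPT1 and IGF1 had at most 2 counts, HGF at most 4, FLT3LG at most 6 and LIF at most 9. In ADH, where Kitl held 2645 to 4029 mouse counts per library, KITLG was at 0. The human counterparts of 5 stromal markers, among them COL1A1 and COL3A1, summed to at most 0.513 CPM in the human counts of ADH.

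REC-1 cells in ADH held 23.2% ± 4.71 (SD, n = 4; range 18.3% to 28.2%) of all gene counts of both species. IL7 exceeded this. Human counts were 218, 155, 70 and 144 beside 193, 138, 211 and 186 mouse counts, which made the human share 53.0%, 52.9%, 24.9% and 43.6% in ADH replicates 1 to 4. The mean was 43.6% ± 13.2, and the share was above that of all genes in 4 of 4 libraries. Wilson 95% intervals, computed on the counts divided by 2 because of their even numbers, ran from 46.3% to 59.9% in replicate 1 and from 18.6% to 32.8% in replicate 3, where the overall share was 18.3%. Per kilobase of exon, which allows for the longer mouse gene model, the human share of IL7 was 55.7% ± 13.98. No share of all genes was computed per kilobase, so this value and that of TGFB1 below cannot be set against 23.2%.

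The human share of TGFB1 counts was 26.0%, 29.7%, 21.9% and 26.1%, a mean of 25.9% ± 3.19, above the overall share in 3 of 4 libraries and below it in replicate 1. Per kilobase of exon it was 35.0% ± 3.79. CSF1 counts in ADH were nearly all of stromal origin, with a human share of 1.19% ± 0.389 (160 to 359 human counts against 17250 to 21142 mouse counts). Of the other factors LIF had a human share of at most 5.26%, FLT3LG of at most 1.57%, HGF of at most 0.308% and ANGPT1 of at most 0.0234%, while KITLG, IL6 and IGF1 were at 0.

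**Figure D5:**
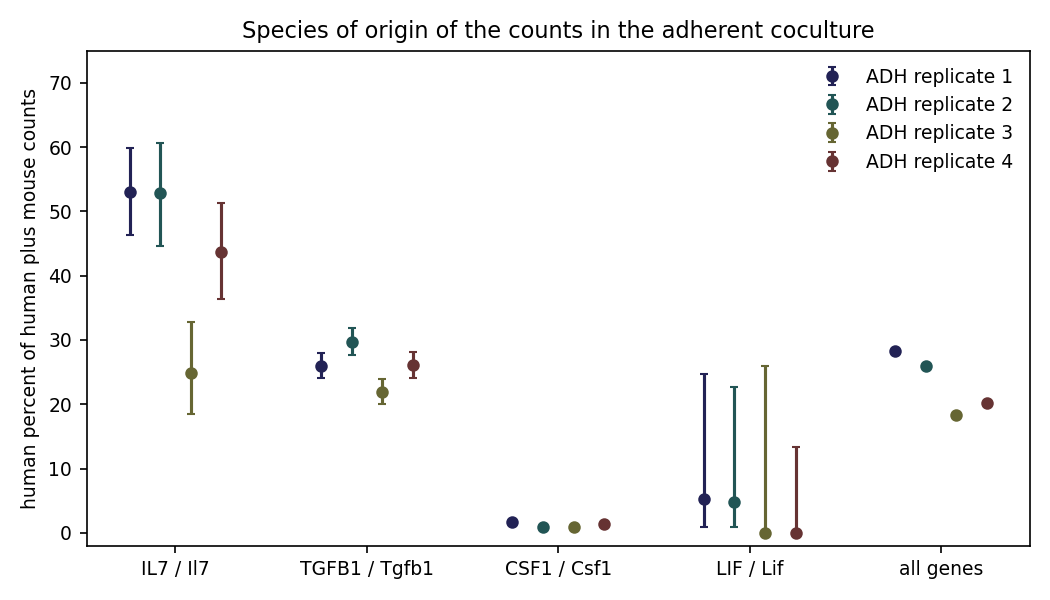
Human percent of the summed human and mouse counts in each ADH library for 4 factors and for all genes, with Wilson 95% intervals on the counts divided by 2 (counting error only). IL7 lies above the share of all genes in each library, TGFB1 above it in 3 of 4 and CSF1 close to 0.

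Within REC-1 cells the counterparts were compared across the 3 growth conditions in 1 edgeR model of the human counts. Replicate 2 of SUSP stood apart from the other SUSP libraries, with a chi-square per degree of freedom of 54.1 to 59.0 against them where the other SUSP pairs were at 6.94 to 10.4. Between ADH and SUSP cells 0 of 3 tested counterparts were called by edgeR or DESeq2, where 0.778% of 12861 genes were called, and 0 of 3 had an unadjusted p below 0.05, as 18% of all tested genes did. IL7 differed by 0.10 (interval -0.31 to 0.51), CSF1 by 0.03 (interval -0.28 to 0.34) and TGFB1 by -0.22 (interval -0.58 to 0.14). Without SUSP replicate 2 these were 0.039, 0.022 and -0.11.

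Against SEP cells, with a background of 1.82% of tested genes called lower, CSF1 was called lower in ADH. It was at 31.9, 42.9, 34.7 and 35.3 CPM in SEP, 25.2, 22.2, 23.5 and 22.7 CPM in SUSP, and 27.0, 18.1, 20.6 and 30.0 CPM in ADH. All ADH values lay below the SEP values, as they did for 8.3% of tested genes. The log2 fold change was -0.60 (interval -0.91 to -0.29, edgeR adjusted p = 0.0340), close to the 1.5-fold limit, and the call was lost when any of SEP replicates 2, 3 and 4 or ADH replicates 2 and 3 was left out, with values of -0.72 to -0.48 over all libraries left out in turn. IL7 (-0.27, interval -0.68 to 0.14) and TGFB1 (0.09, interval -0.27 to 0.45) were not called.

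The lymphoma cells carried receptors for part of the stromal output. Of 14 human receptor genes, LIFR and TEK were at 0 in all 12 libraries, KIT had at most 6 counts, CSF1R at most 9 and FLT3 at most 4, and 9 were tested. The subunits of the IL7 receptor were both present in ADH, IL7R at 2.88 and IL2RG at 12.0 CPM per kilobase. TGFBR2 (11.5 CPM per kilobase) and TGFBR1 (10.0) were close to IL2RG and IL6R (3.57) to IL7R, IGF1R (1.73) and IL6ST (1.41) were lower, and TGFBR3 (0.817) and MET (0.393) were lowest. Of the 4 factors most expressed by the stroma, Csf1, Angpt1 and Kitl had receptors (CSF1R, TEK and KIT) at or near 0 in REC-1 cells, and Tgfb1 had both of its signalling receptors there.

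Between ADH and SUSP cells 0 of 9 receptors were called by edgeR or DESeq2, where edgeR called 0.778% of all tested genes. An unadjusted p below 0.05 was found for 2, where 18% of all tested genes had one. They were IL6R with a log2 fold change of 0.31 (interval 0.03 to 0.60, edgeR adjusted p = 0.238) and TGFBR1 with 0.29 (interval 0.04 to 0.53, edgeR adjusted p = 0.227). Without SUSP replicate 2 these were 0.23 and 0.21. Between ADH and SEP cells 1 of 9 was called higher, where 0.583% of tested genes were, namely IL7R at 8.98, 6.69, 10.9 and 6.38 CPM in SEP against 16.8, 19.8, 16.96 and 15.7 CPM in ADH. Its log2 fold change was 1.08 (interval 0.72 to 1.45, edgeR adjusted p = 0.00178). SUSP cells were at 20.6, 16.3, 20.3 and 23.0 CPM, and ADH differed from them by -0.21 (interval -0.55 to 0.14) with overlapping groups. IL2RG did not overlap between these groups but was not called (0.26, adjusted p = 0.339), beside 7.42% of tested genes that were higher without overlap. The remaining receptors differed from SEP by -0.18 to 0.43 on the log2 scale and were not called.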

How the data were processed

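Whole-number gene counts, neither normalized nor filtered, were deposited by the authors for poly(A) RNA-seq libraries. They had split read pairs into human and mouse with Xenome, aligned them to GRCh38 and GRCm38 with STAR 2.5.1b keeping unique alignments, and counted fragments on the exons of Ensembl genes with featureCounts from Subread 1.5.2. Groups came from the sample titles. The 20 columns of other samples were not used. The genes described and all lists were chosen with earlier results of these data known.

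Counts were analysed in R 4.3.3 with edgeR 4.0.16 (filterByExpr, TMM, quasi-likelihood F-test with legacy dispersions), with no covariate. The 4 MS-5 and 4 ADH libraries formed the mouse model, which tested 12201 genes, and SEP, SUSP and ADH the human model, which tested 12861. P-values were adjusted by Benjamini-Hochberg over all genes tested. Standard errors and 95% intervals came from the fitted covariance and the moderated dispersion, and are unadjusted. Exon lengths and positions came from GENCODE releases on GRCm38 and GRCh38, which are not the annotation release used for counting, so values per kilobase are approximate. Named genes were every factor, every tested receptor, the members of each list at 0 and up to 4 called genes of each other list, of which there were none in the mouse lists. No factor was called, so no gene of like pattern was sought. Code was tested on simulated counts. The labels do not say what a shared replicate number marks. Replicate numbers were for that reason not taken as pairs in the main fit. Deviations of same-numbered libraries correlated at 0.286, 0.083, 0.033 and 0.161 for numbers 1 to 4 in the mouse model. These values passed 0.1 for 2 of 4 numbers and do not settle whether the numbers mark pairs. With replicate number in the model, 45 mouse genes were called in place of 25.

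Results were recomputed with replicate number added to the model, with DESeq2 1.42.0, upper-quartile normalization, other low-count filters (none, or at least 10 counts in every library), thinning to the smallest library, removal of mitochondrial genes, no fold-change minimum, each library left out in turn and, chosen after seeing the data, counts divided by 2. At 3 counts the floor was 0.174 to 0.299 CPM in MS-5 alone and 0.0863 to 0.102 CPM in ADH, so factors at a few CPM or less were measured with the least precision.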

Additional observations from a re-analysis of the deposited data

Results flagged for a closer look

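Csf1r in ADH replicate 3 was flagged because it lay far from the other libraries of its group. It was at 0.978 CPM, where the other 3 ADH libraries were at 0.413 to 0.508 CPM, and the gap took 0.832 of the group's range just above Dixon's critical value for 4 samples. It was the 1 flag among 72 groups of 4 libraries examined, and chance flags about 1 group in 20.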

How the results depend on the processing

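None of the 9 tested factors was called under any alternative that gave it an adjusted p for MS-5 in coculture against MS-5 alone. Lif was not tested with at least 10 counts in every library, and DESeq2 gave no adjusted p for Lif and Flt3l. The count of all called genes, 25, became 45 with the replicate number as a term (block), 45 with no low-count filter and 94 with no fold-change minimum, and 8 to 36 with single libraries left out. It fell by more than 1.5 times without MS-5 replicate 2 (13), 3 (8) or 4 (11) or ADH replicate 3 (13). The sign of weak changes turned when 1 library was left out, for Flt3l without MS-5 replicate 2 (range -0.029 to 0.27), for Igf1 without MS-5 replicate 3 or ADH replicate 1 (-0.034 to 0.17) and for Lif without MS-5 replicate 2 or ADH replicate 4 (-0.045 to 0.36). For REC-1 cells the 100 genes called between ADH and SUSP became 281 with the block, 282 with DESeq2, 341 with no filter and 51 to 92 with libraries left out, lowest without SUSP replicate 4 (66), ADH replicate 1 (51) or ADH replicate 3 (62). The 309 called between ADH and SEP became 527 with DESeq2, 503 with no filter and 143 to 490 with libraries left out, being over 1.5 times lower or higher without SEP replicate 1 (490), 2 (143) or 4 (173) or ADH replicate 1 (203) or 3 (192), and the 2 counterparts and receptors among them became 1 to 2. The cause of these shifts was not tested. Between ADH and SUSP the values ranged over both signs with libraries left out for IGF1R (-0.060 to 0.20), IL6ST (-0.11 to 0.20), TGFBR2 (-0.11 to 0.056), CSF1 (-0.090 to 0.15), MET (-0.16 to 0.16) and IL7 (-0.018 to 0.26), and between ADH and SEP for TGFB1 (-0.025 to 0.22) and MET (-0.37 to 0.14). Same-numbered libraries correlated best with each other for 3 of 4 numbers in the mouse model, 2 of 4 between ADH and SUSP and 3 of 4 between ADH and SEP, a hint from the data and not from the design. The correlation passed 0.1 for 2, 1 and 3 of 4 numbers, which does not settle whether the numbers mark pairs. The main fit was left without pairing. The block changed no call of a factor, counterpart or receptor (Csf1 had an edgeR adjusted p of 0.00705 at -0.24, under 1.5-fold). Counting depth limits Il6, Lif, Flt3l, Igf1 and Il7 most.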
